A study of Pseudotsuga menziesii with 83 samples.

Results

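Needle mRNA libraries of Douglas-fir (Pseudotsuga menziesii) were counted over 90662 features in the deposited table. Of these, 76 were plainly detected in some trees and missing from others on every collection date. They were chosen by their counts: a feature qualified if it had at most 1 count on all 4 dates in 3 or more trees and 20 or more counts on all 4 dates in 3 or more other trees. The limits were applied to 44 libraries, from 11 trees each sampled on 10 March, 7 April, 6 May and 17 June. A tree is called present for a feature at 20 or more counts on all 4 dates, absent at 1 or less on all 4 dates, and in between otherwise. Because these counts selected the features, the differences between trees are given as a description, with no test.

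The trees grew in 1 common garden in southern Oregon and came from 3 seed sources, with needles of the previous season's growth taken from the same tree each time. Oregon Siskiyou (ORSI) was represented by families ORSI-3076 and ORSI-3082 with 2 trees each, Washington Cascades (WACA) by family WACA-1147 with 2 trees and family WACA-1162 with 1 tree, and Washington Coast (WACS) by families WACS-7202 and WACS-7205 with 2 trees each. Every 10 March library was labelled pre-budbreak and every 17 June library post-budbreak. On 7 April only Oregon Siskiyou trees had any post-budbreak label, and on 6 May only a Washington Coast tree was still pre-budbreak. A second tree of family WACA-1162 (tree 38) was outside the rule, and its 7 April and 6 May libraries are used below as libraries that had no part in the choice. A 17 June column of tree 38 was not used, because the labels date it to 17 June while the study's library list gives that tree a 10 March library and none for 17 June. No group carried a treatment, and each tree is a single seedling with no clonal copy.

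Trees of 1 family here share a mother and may have different pollen parents, so a maternal allele can reach some sibs and not others. In outcrossing conifers, a transcript can be missing from a tree because the gene copy is missing, because the allele is not transcribed, or because its sequence differs so far from the reference that reads no longer align; counts alone do not separate these. Variation of this kind is well known between individuals of outcrossing plants. The paper also assigned part of its assembled transcripts to organisms living on the needles or to contaminants. Whether the 76 features include such transcripts could not be checked. Many needle transcripts also follow the season, since evergreen needles pass through winter dormancy and the resumption of growth at budbreak. The features carry numbers only, so no gene name, role or sequence can be given for them, near-identical copies could not be looked for, and the tissue label could not be checked against needle markers.

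The 44 library totals lay between 11293394 and 11302021 counts. The paper lists unequal read numbers for these libraries, so the deposited totals were made nearly equal by a step that is not described. A count of 0 in a library allows up to 3 counts, which covers counting error only. This takes the deposited values as plain counts, which could not be checked. Of the 20177 features present in 3 or more trees, 19961 were absent in none, 98 in exactly 1 and 42 in exactly 2, and the 76 features make up 0.377% of them.

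Each library was checked on the features that the same tree lacked on its other 3 dates (1 count or less) and that were present in 3 or more of the other trees. In 3 libraries a large share of these had counts. In the 10 March library labelled tree 44 (family ORSI-3076), 37 of 67 such features (55.2%) had 2 or more counts and 25 had 20 or more, with a highest count of 126. The 17 June libraries of tree 68 (family WACS-7205) and tree 69 (family WACS-7202) had 2 or more counts for 49.1% and 40.6% of such features. The other 41 libraries lay between 0.0% and 27.4% (median 6.25%), with no count above 12. These 3 libraries are therefore named throughout, and the results are given with and without them.

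**Figure D1:**
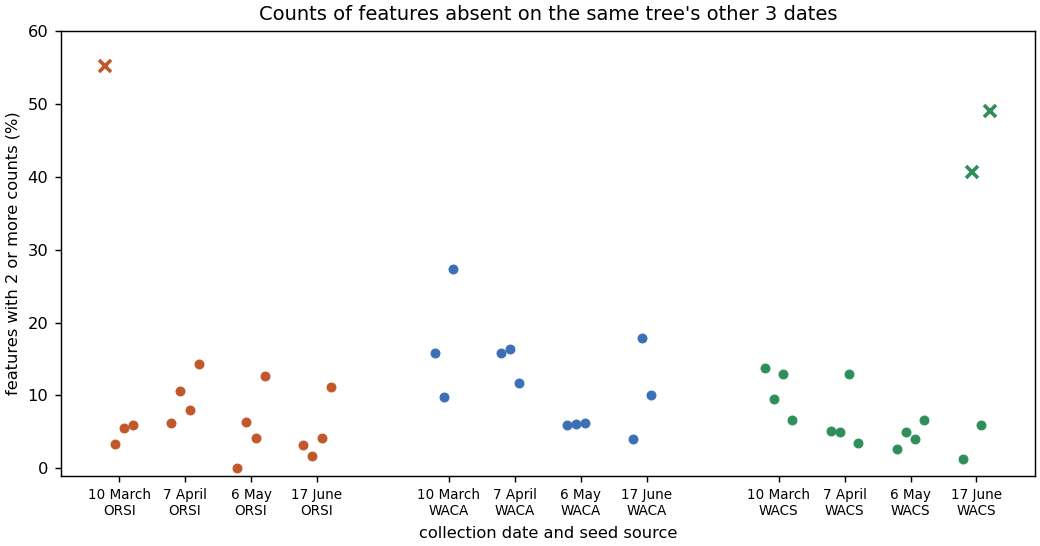
Share of features with 2 or more counts (percent, y axis) in each library, over the features that the same tree lacked on its other 3 dates and that were present in 3 or more other trees, by collection date and seed source (x axis). Each dot is 1 library and each cross is 1 of the 3 libraries that stood apart, at 55.2% for ORSI on 10 March and at 49.1% and 40.6% for WACS on 17 June; the other 41 do not exceed 27.4%.

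The counts in those libraries were set beside those of other trees, here over all features that the other tree had, whether or not 3 more trees had them. In the 10 March library labelled tree 44, all 64 features that tree 44 lacked on its other dates and tree 38 had were detected, at 6 to 1215 counts (median 28.5) and at a median of 0.606 of the level in tree 38. The 28 features that both trees lacked and 3 or more other trees had reached at most 2 counts. The 90 features that tree 44 had and tree 38 lacked stood in March at a median of 0.473 of the tree's own 7 April count, against 0.891 to 1.21 for the matching sets in the other 10 trees. In the 17 June library of tree 68, 48 of 66 features that it otherwise lacked and tree 69 had were detected, at a median of 0.0556 of the level in tree 69, while 1 of 22 that both lacked and 3 or more other trees had reached 2 or more counts. In the 17 June library of tree 69 the same held for 51 of 81 features of tree 68, at a median of 0.0405 of its level, and for 0 of the 22 that both lacked. Trees 68 and 69 were sequenced in the same lanes, together with trees of ORSI and WACA, and the part that this plays was not tested.

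Without these 3 libraries, 99 features met the rule, and they included all 76. Over the 836 combinations of a feature and a tree, 306 (36.6%) were present, 351 (42.0%) absent and 179 (21.4%) in between; without the 3 libraries these numbers were 309, 388 and 139. A feature was present in 3 to 8 trees (median 3.5) and absent in 3 to 8 (median 4). Of the 1404 counts in absent trees, 1233 (87.8%) were exactly 0, and 17 features had 0 in every library of every absent tree. Only 9 features split the 11 trees without any tree in between, and 19 did so without the 3 libraries.

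**Figure D2:**
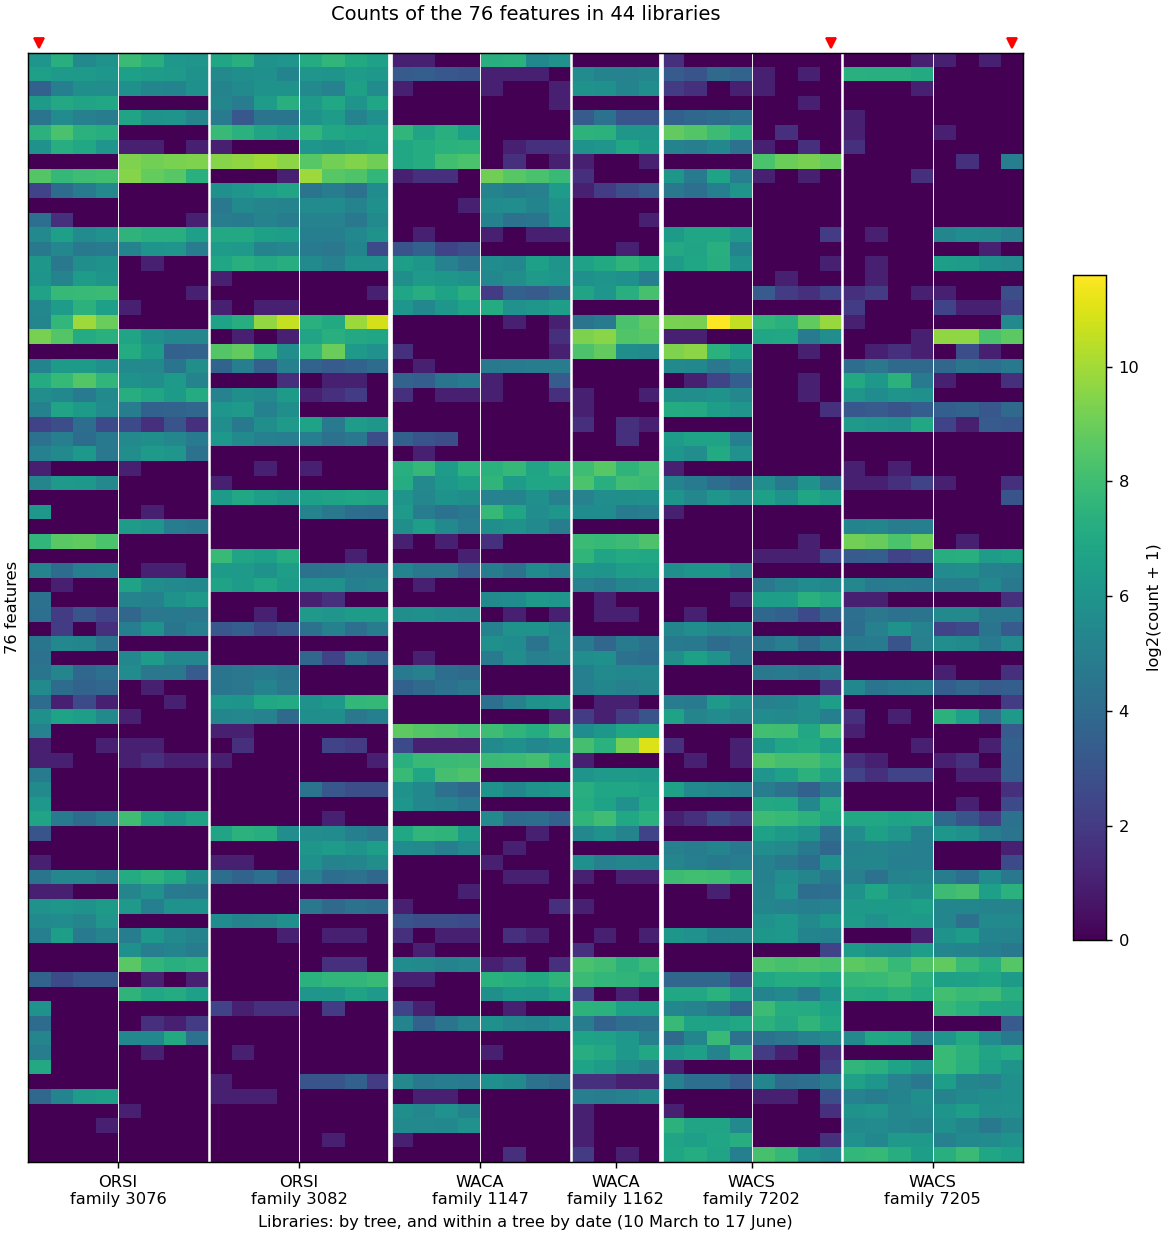
Counts of the 76 features (rows) in 44 libraries (columns), as log2(count + 1) in colour, with libraries ordered by seed source, family, tree and date; rows run from features present in more ORSI than WACS trees to the reverse. Red triangles mark the 3 libraries that stood apart. Dark and bright blocks keep to the 4 libraries of a tree. No row is shared by all trees of a seed source and missing from all others except gene27888 and, with up to 3 counts in WACA, gene37403.

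The limits fell in a continuous range of values. Just inside, gene22219 and gene23029 had a third-highest tree whose lowest count was 20, and just outside, gene38236 and gene41339 had 19. On the absent side, gene35322 and gene51021 were left out because the third-lowest tree reached 2 counts. In all, 19 features were left out by a count of 2 on the absent side, and 39 had a third-highest tree with a lowest count of 15 to 19.

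The first question is whether the features follow seed source. Mostly they did not: 46 of 76 (60.5%) had both states among the 4 Oregon Siskiyou trees, 40 (52.6%) among the 3 Washington Cascades trees and 50 (65.8%) among the 4 Washington Coast trees. Without the 3 libraries the numbers were 47, 40 and 54. Present calls made up 36.8% of combinations in ORSI, 35.96% in WACA and 36.8% in WACS. Features present in every tree of the source numbered 3 in ORSI, 7 in WACA and 2 in WACS, and features absent in every tree numbered 5, 7 and 6.

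Only 5 features were present in every tree of 1 seed source and absent in every tree of another. The clearest was gene27888, present in Washington Cascades and absent from both other sources. It had 156, 212, 85 and 167 counts from 10 March to 17 June in 1 tree of family WACA-1147, 167, 209, 110 and 173 in its sib, and 251, 382, 185 and 260 in the tree of family WACA-1162. All 32 libraries of ORSI and WACS had 0 or 1. That the groups did not overlap was fixed by the choice, since gene27888 was named for this split. In the second tree of family WACA-1162, however, which the rule had not used, gene27888 had 0 counts on 7 April and 1 on 6 May, so it was absent from a tree of the same source and family.

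The mirror case was gene37403, present in Washington Coast only. In family WACS-7202 it had 116, 144, 108 and 31 counts over the 4 dates in 1 tree and 294, 211, 58 and 41 in the other. In family WACS-7205 it had 90 to 219 and 92 to 241 counts. The counts of 41 and 92 are from the 17 June libraries of trees 69 and 68. All 16 Oregon Siskiyou libraries were at 0, and the Washington Cascades libraries did not exceed 3. Against a floor of 3 counts per library, its mean of 142.0 counts in WACS was at least 47.33-fold higher than in ORSI. Tree 38 had 0 counts on both dates.

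The other 3 were sorted between a pair of sources only. Present in every ORSI tree and absent in every WACA tree, gene76290 had 31 to 185 counts in ORSI and 0 or 1 in WACA, and in WACS it was present in 1 tree of each family. Tree 38, also from Washington Cascades, had 37 and 55 counts of it. In WACA, gene34447 had 30 to 77 counts against 0 or 1 in WACS, and it was also present in 1 tree of family ORSI-3076; tree 38 had 51 and 62. For gene32229 the counts were 20 to 216 in WACA and 0 or 1 in WACS, with 80 and 28 in tree 38. A tree of family ORSI-3082 was in between for gene32229, at 35, 24, 17 and 16 counts, and the library labelled tree 44 on 10 March had 71 counts against 0 on that tree's other dates.

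Without the 3 libraries gene18659 joined them. It had 49 to 428 counts in WACA, and the ORSI libraries held 0 or 1 apart from 34 in the 10 March library labelled tree 44. Tree 38 had 69 and 62 counts. It was also present in tree 69 of family WACS-7202, at 118 to 274 counts before 17 June and 278 in its 17 June library. Of these 6 features, tree 38 had the state of the WACA trees for gene34447, gene32229 and gene18659 and the opposite state for gene27888 and gene76290.

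**Figure D3:**
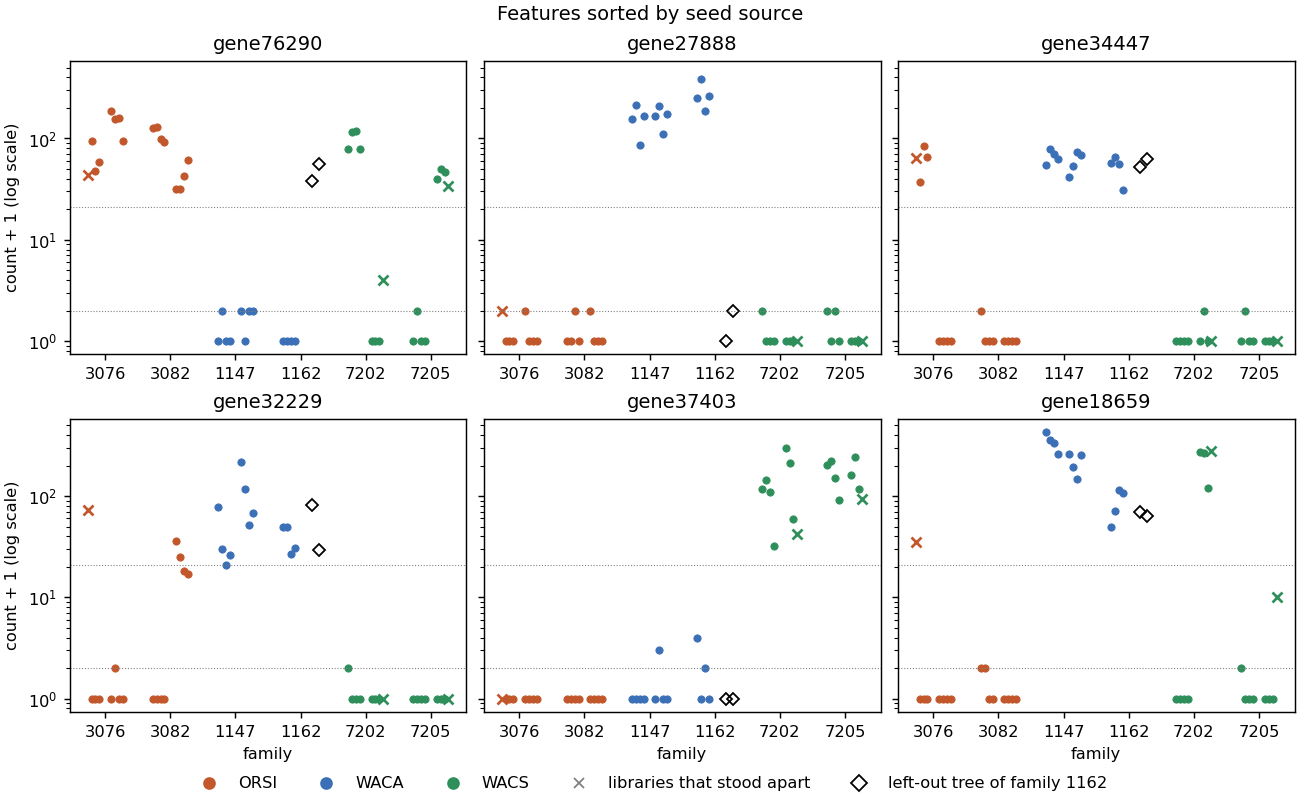
Counts plus 1 on a log scale (y axis) of the 6 features sorted by seed source, by family (x axis, coloured by seed source), with a point for each library, the 2 trees of a family side by side and dates in order within a tree. Dotted lines mark 1 and 20 counts, crosses the 3 libraries that stood apart and open diamonds the 7 April and 6 May libraries of tree 38, which lie with the absent trees for gene27888 and above 20 counts for gene76290.

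Families were also split. In family ORSI-3076, 14 features were present in both trees, 12 absent in both and 20 present in 1 and absent in the other; without the 10 March library labelled tree 44 the numbers were 15, 21 and 24. Family ORSI-3082 had 19 present in both, 26 absent in both and 13 split. Family WACA-1147 had 10, 20 and 19. Family WACS-7202 was the most divided, with 9, 10 and 25, or 10, 16 and 28 without the 17 June library of tree 69. Family WACS-7205 had 17, 15 and 12, or 17, 25 and 14 without the 17 June library of tree 68. The single tree of family WACA-1162 had 34 present and 28 absent.

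At least 1 family was split for 57 of 76 features, and for 61 (80.3%) without the 3 libraries. With those libraries aside, 31 features split 1 family, 23 split 2 and 7 split 3 of the 5 families that had 2 trees. Both sibs were in the same state in all 5 families for gene27888, and without the 3 libraries also for gene18794 and gene5063. The case of gene18794 was sorted by family and not by source: it had 70 to 118 counts in family ORSI-3082 but 0 in all 8 libraries of family ORSI-3076, and 40 to 114 in family WACS-7202 but 0 in family WACS-7205 apart from 7 counts in the 17 June library of tree 68. Families from the same source were thus in opposite states. Tree 38 had 0 counts of it on both dates, while its sib in family WACA-1162 had 34 to 55.

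Pairs of trees were compared by what they shared, without the 3 libraries. Both trees were called and in the same state in 179 of 277 cases (64.6%) for the 5 pairs of sibs, with 48.1% to 77.6% for single pairs (mean 64.4% ± 12.0, SD, n = 5 pairs). Pairs from different seed sources were in the same state in 45.8% of cases, with 29.8% to 65.3% for 40 pairs (mean 45.8% ± 8.31, SD). Some of these 40 pairs also shared lanes, and they were not separated from the rest. Pairs of different families in the same source were in the same state in 55.9% of cases when they shared lanes and in 51.9% when they shared the barcode index, over 5 pairs each. The ranges of all 4 kinds overlapped. The pairs reuse the same 11 trees, and the rule fixes how many trees can agree for each feature, so no test was made.

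With all libraries, the sibs were in the same state in 63.1% of cases, against 44.6% for pairs from different seed sources. The pairs that shared lanes then came to 58.5%, of which trees 68 and 69 had 91.2% (31 of 34). Without the 3 libraries, more features were called in both of these trees, and 32 of 54 (59.3%) were in the same state. The same pair shared the 2 libraries of 17 June described above. The highest pair of sibs was that of family ORSI-3082, at 77.6%, and the lowest that of family WACS-7202, at 43.18%, or 48.1% without the 17 June library of tree 69.

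**Figure D4:**
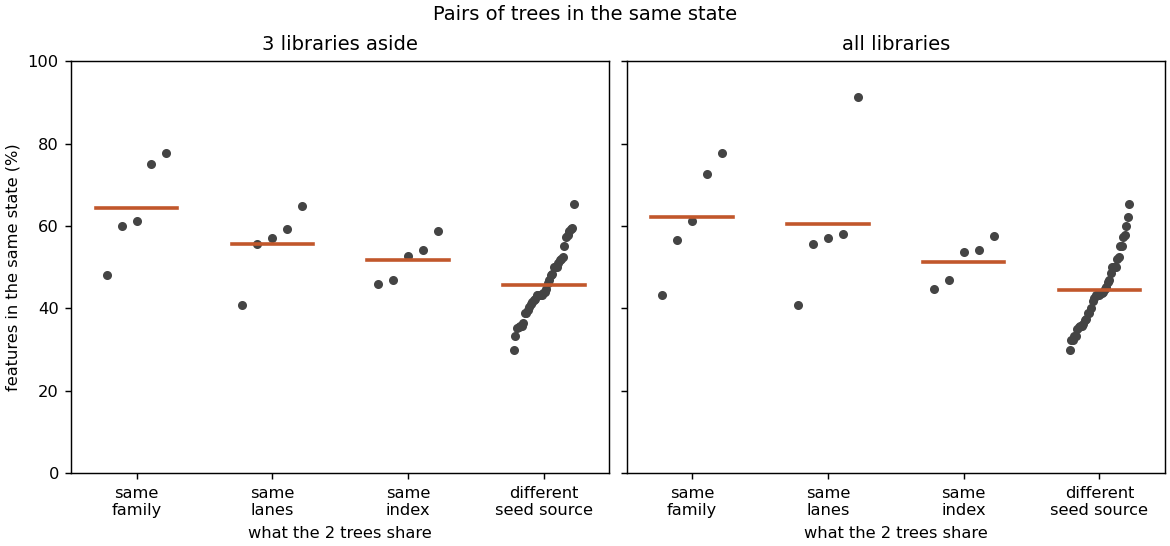
Share of features in the same state (percent, y axis) for each pair of trees, among features called present or absent in both, by what the pair shares (x axis), without the 3 libraries (left) and with all libraries (right). Each dot is 1 pair and each line the mean of the pairs. Sibs average 64.4% on the left and different seed sources 45.8%, and some pairs from different seed sources also share lanes. The pair at 91.2% on the right is trees 68 and 69, which stand at 59.3% on the left.

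In tree 38, from the libraries that had no part in the choice, 25 features were present, 37 absent and 14 in between on 7 April and 6 May. It was in the same state as its sib in family WACA-1162 for 34 of the 52 features called in both (65.4%). Against the other 10 trees the share was 35.8% to 59.6% without the 3 libraries. The states of these trees selected the features, and features can share states, so no interval or test is given. With all libraries the highest share was 70.7%, with tree 44, and it was 52.7% without that tree's 10 March library. Of the features called in both sibs of family WACA-1162, 17 were present in both, 17 absent in both, 12 absent in tree 38 only and 6 present in tree 38 only.

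Among the features with the highest mean counts, presence cut across families in different ways. In family ORSI-3082 gene15058 had 106, 150, 844 and 1550 counts in 1 tree and 162, 130, 921 and 1842 in the other. In family ORSI-3076 it was present in 1 tree and at 0 in all libraries of the other. The present tree had 204 to 962 counts, apart from 39 in the 10 March library labelled tree 44. Family WACA-1147 had 0 or 1. The tree of family WACA-1162 had 21, 26, 311 and 441 counts, and both trees of family WACS-7202 were present. Family WACS-7205 had 0 or 1, apart from 45 counts in the 17 June library of tree 68. In the same lane on that date, tree 69 had 903 counts, tree 89 had 1842, tree 90 had 0 and tree 39 had 1.

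For gene46283, the 5 present trees had 120 to 994 counts, and 4 trees were absent. Families ORSI-3076, WACA-1147 and WACS-7202 each had a present tree beside a tree with at most 2 counts on any date. A feature left out by a count of 2, gene35322, had its high and low trees in the same places: 602 or more counts in the ORSI trees where gene46283 was present, 217 to 496 in the present tree of family WACA-1147 and 470 to 963 in that of family WACS-7202. Whether these are parts of 1 gene could not be checked. For gene24710 the present trees spanned 26 to 812 counts over 6 trees, of which 3 were from ORSI, 1 from WACA and 2 from WACS.

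Others were present in fewer trees. In 3 families gene30288 was present in a single tree. It had 314 to 441 counts in family ORSI-3076, apart from 200 in the 10 March library labelled tree 44. Counts were 220 to 325 in family WACA-1162 and 322 to 568 in family WACS-7205. The sibs of the first and the last had 0 or 1 count. In ORSI and WACS gene78626 had 85 to 450 counts in its present trees, while 1 tree in each of families ORSI-3076, WACA-1147 and WACS-7202 and both trees of family WACS-7205 had at most 2. The level was 49 counts or less in 1 tree of family WACA-1147 for gene24651 and 155 to 433 in the present trees of families ORSI-3076, WACA-1162, WACS-7202 and WACS-7205. In family ORSI-3076 gene292 was present in both trees, at 163 to 718 counts, and in family ORSI-3082 it had 207 to 948 in 1 tree and 0 or 1 in the other.

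Intermediate levels could be stable too. In tree 44 (family ORSI-3076) gene44230 had 5, 8 and 8 counts on the last 3 dates, and 12 in the 10 March library that stood apart. In 1 tree of family WACS-7202 it had 13, 13, 14 and 5 over the 4 dates, with 15 and 16 in tree 38. Its present trees had 78 to 273 counts. Across all features, 25 of the 139 intermediate combinations (18.0%) had 2 to 19 counts in every library, 60 (43.17%) had some library at 1 or less and none at 20, and 54 (38.8%) had some library at 20 or more and none at 1 or less. No combination had libraries on both sides without the 3 libraries, whereas 12 did with them. Each of those 12 contained a library that stood apart.

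Levels among present trees varied as well. The highest tree mean was 1.16 to 15.8 times the lowest (median 2.21). Without the 3 libraries, when both sibs were present, the higher had a median of 1.39 times the counts of the lower over 71 cases. It was 1.22 times over 85772 cases of the other features present in 3 or more trees. Across the 4 dates, a present tree's highest count was a median of 1.98 times its lowest over 223 cases, beside 1.86 times for the other features. The selected features had lower counts: their mean count over all trees had a median of 30.81, against 138.8 for the other features. In their present trees alone the median was 65.5. The ratios were not compared at equal counts, so no difference between the selected and the other features is read from them. An example of uneven levels was gene22847, with 41 to 55 counts in 1 tree of family WACA-1147, 70 to 135 in 1 of family WACS-7202 and 171 to 2030 in that of family WACA-1162.

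The features rarely shared a pattern over trees. There were 75 different patterns over the 11 trees for 76 features, and the only shared one was that of gene5063 and gene61545. Both were present in family WACS-7205 and in family WACA-1162. Both were absent from family ORSI-3082, family WACA-1147 and 1 tree each of families ORSI-3076 and WACS-7202, and in between in trees 44 and 69. In tree 69 (family WACS-7202) only the 17 June library that stood apart exceeded 1 count, with 3 of gene5063 and 6 of gene61545. The other tree of family ORSI-3076 was in between for different reasons: gene5063 had 126 counts on 10 March and 0 on its other dates, and gene61545 had 14, 37, 83 and 93 counts. Tree 38 had 220 and 113 counts of gene5063 and 0 of gene61545. Without the library labelled tree 44 on 10 March, the features thus differed in that tree.

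Without the 3 libraries, some pairs of features were in the same state in every tree called for both, with at least 9 such trees. These were gene27888 with gene32229, gene54225 with gene56821, gene39511 with gene90570, and gene46687 with gene22219. They were picked for this likeness, and how many pairs would match by chance was not tested. Across families, gene54225 and gene56821 were both present in 1 tree of family WACA-1147, in the tree of family WACA-1162 and in 1 tree of family WACS-7202, and both had 0 in family ORSI-3082. In the 10 March library labelled tree 44, they had 27 and 71 counts, against 0 on that tree's other dates. Tree 38 had 110 and 92 counts of gene54225 and 87 and 56 of gene56821. The same tree was absent for gene27888, at 0 and 1 counts, and present for gene32229, at 80 and 28. That pair was thus in opposite states in the tree outside the rule. Both gene39511 and gene90570 had 0 counts there on both dates. For the last pair, gene46687 had 0 counts and gene22219 was in between, at 19 and 9.

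The second question is whether the features, where present, also followed the season. The first fit compared dates across trees with the seed source as the only other term (edgeR quasi-likelihood, Benjamini-Hochberg, adjusted p at most 0.01). On 17 June against 10 March it called 0 of the 76 features, with 4 at an unadjusted p under 0.05, while DESeq2 called 1; over all 28957 features tested it called 33.3%. For any change over the 4 dates and for 6 May against 7 April it also called 0 of the 76 features, with 3 and 1 at an unadjusted p under 0.05 (DESeq2 called 1 and 0), against 50.4% and 29.8% of all features. In that fit the spread between trees is part of the error, and the features were selected for a wide spread, so nothing is read from these counts.

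With the tree as replicate block, 16 of 76 features changed between 10 March and 17 June: 6 were higher and 10 lower in June. Of all features tested, 45.3% were called, 22.4% higher and 22.9% lower. The fit called 16 of 76 for any change over the 4 dates, against 66.7% of all features, and 7 of 76 for 6 May against 7 April, against 42.1%. The rule left out features whose counts crossed its limits between dates, and a feature's absent trees carry no seasonal signal, so the lower shares are not a result about these features. The median change was 0.001 on the log2 scale over the 76 features and -0.006 over all features, with 38 above 0 and 38 below. Each lane held libraries of a single date, so differences between dates cannot be told apart from differences between lanes. The 6 May and 17 June libraries all shared a flowcell, while those of 10 March and 7 April were divided between it and another. With a flowcell term added, the blocked fit called 10 of 76 for 17 June against 10 March, 4 higher and 6 lower. The part that lanes play was not tested.

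Among the 16 called features, the largest rise was that of gene15058. Over its 6 present trees it had 441 to 1842 counts on 17 June (median 1190.5), against 21 to 621 on 10 March (median 134.0). It was higher in June in 6 of 6 trees, by 3.48 ± 0.40 on the log2 scale (SE; edgeR with the tree as block, adjusted p = 1.73e-08), and by 3.11 without the 3 libraries (adjusted p = 8.23e-08). Most of the change lay between 7 April (26 to 602 counts) and 6 May (311 to 3065 counts). The 4 absent trees had 0 or 1 count throughout.

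Another rise was that of gene23029, which had 109, 49 and 83 counts on 17 June in its 3 present trees, against 55, 21 and 35 on 10 March. Its change was 1.75 ± 0.30 on the log2 scale (edgeR with block, adjusted p = 4.37e-05). Intermediate trees also had more in June, with 43 against 4 counts in tree 44, whose 10 March library stood apart, and 64 against 24 in a tree of family WACS-7202. The rise of gene22847, 1.61 ± 0.48 (edgeR with block, adjusted p = 0.00445), rested on the tree of family WACA-1162, which had 2030 counts on 17 June and 171 to 579 on the earlier dates. Its other present trees had 54 and 90 counts in June against 44 and 70 in March, the 90 being from the 17 June library of tree 69. Without tree 08, the tree of family WACA-1162, the adjusted p in edgeR with the block was 0.287.

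The largest fall among them was that of gene90521, which had 50, 58, 46 and 99 counts on 17 June in its 4 present trees, against 359, 196, 329 and 649 on 10 March. June was lower in all 4, and the change was -2.40 ± 0.33 on the log2 scale (edgeR with block, adjusted p = 2.47e-07). The counts had not yet fallen on 7 April, when they were 442 to 766. In its 3 present trees gene32229 had 25, 67 and 30 counts on 17 June against 77, 216 and 49 on 10 March, a change of -1.82 ± 0.53 (edgeR with block, adjusted p = 0.00545). Without the 3 libraries the change was -1.11 (adjusted p = 0.0022), the 10 March library labelled tree 44 having 71 counts. With all libraries and a flowcell term, gene32229 was no longer called (-1.37, edgeR with block, adjusted p = 0.0491).

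For gene5484 the counts were 96, 104 and 110 on 17 June against 181, 245 and 214 on 10 March. The counts of 104 and 110 are from the 17 June libraries of trees 69 and 68. The change was -1.44 ± 0.46 (edgeR with block, adjusted p = 0.00918), and -0.996 with an adjusted p of 0.0323 without the 3 libraries. With a flowcell term gene5484 was not called either (-1.11, edgeR with block, adjusted p = 0.0733). In that fit gene15058, gene23029, gene22847 and gene90521 kept an adjusted p of at most 0.0021. Of the source-sorted features, gene37403 was lower in June in 4 of 4 present trees, by -1.29 ± 0.30 (edgeR with block, adjusted p = 0.00101), with an adjusted p of 0.0107 without the 3 libraries. In 15 of the 16 features every present tree moved the same way; in gene24710 June was higher in 1 of 6 trees and lower in the others. Without the 3 libraries 11 of the 16 were called, the 5 lost being gene5484, gene37403, gene24710, gene20002 and gene61545, and 2 others were called.

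Leaving out each tree in turn, with the block, kept 6 of the 16 calls in every fit: gene15058, gene23029, gene90521, gene292, gene24012 and gene78626. The other 10 passed the threshold no longer without some tree, with adjusted p-values of 0.0132 to 0.287 in edgeR. The trees whose removal raised the adjusted p most were 44 for gene24710 and gene61545, 08 for gene20002 and gene22847, 39 for gene32229, 10 for gene5484, 69 for gene37403, 90 for gene36539, 12 for gene34691 and 89 for gene49621.

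**Figure D5:**
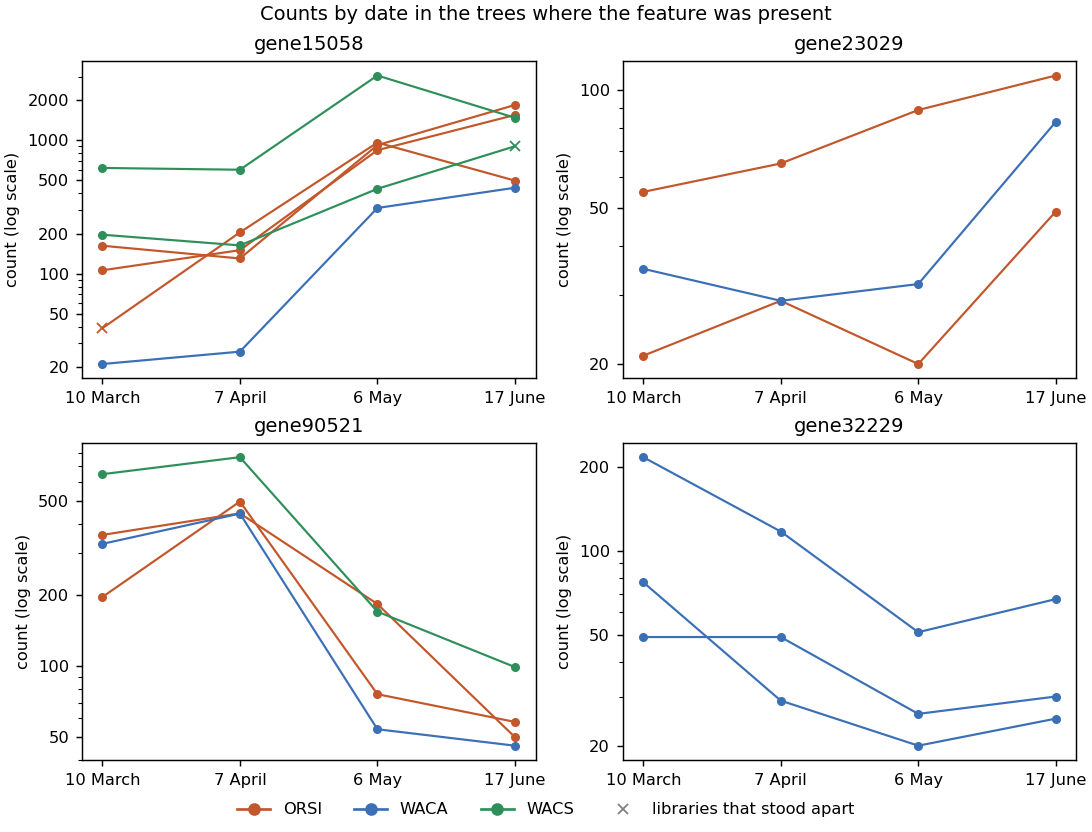
Counts on a log scale (y axis) on the 4 dates (x axis) of gene15058 and gene23029, which were higher on 17 June than on 10 March, and of gene90521 and gene32229, which were lower. Each line is 1 tree in which the feature was present, coloured by seed source, and crosses mark libraries that stood apart; all 6 lines of gene15058 end above their start and all 4 of gene90521 end below it.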

How the data were processed

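mRNA-seq libraries of single trees were sequenced on Illumina instruments. As deposited by the authors, the values are read counts of numbered features: whole numbers with nearly equal column totals. The methods describe a reference clustered from single-tree assemblies and alignment of each library to it; whether that reference underlies these numbered features, which counter was used and how the totals became equal is not stated. CASAVA 1.8 and Bowtie2 are the tools listed in the submitters' processing notes. Groups, trees and families were taken from the labels, and 1 column, 17 June of tree 38, was not used because its date differs between sources. The features and lists were chosen with earlier results of these data known.

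The rule was applied to the deposited counts as they stand. Seasonal changes were fitted with edgeR 4.0.16 (R 4.3.3; TMM, quasi-likelihood, Benjamini-Hochberg over all 28957 features with 10 or more counts in 12 or more libraries) with seed source and date as terms. The fit with the tree as replicate block is paired by design, since the same tree was sampled on each date: over 66 pairs of a tree's libraries, deviations from the group mean correlated at 0.263 to 0.770, all above 0.1. Each group has 3 or 4 trees. DESeq2 1.42.0, other filters and thresholds, a flowcell term and leaving out each tree were alternatives; leaving out the 3 libraries that stood apart, and leaving out each tree with the block kept, were added after seeing the data. Counts were simulated for 17 June against 10 March with 200 of 28957 features changed 4-fold. The test recovered 170 without the block and 191 with it, with 0 and 1 false calls. The changed features were drawn from all those tested, the rest did not change, and no lane effect was simulated. The recovery therefore does not carry over to the 76 features.

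Named features were the 10 with the highest mean count, those sorted by seed source, the commonest patterns (only 1 was shared by 2 features, so no other ranks), the 3 largest seasonal rises and falls among features called in the blocked fit, and those nearest the limits. Features outside this rule (gene18659, gene18794, gene54225, gene56821 and others named for a likeness or a lost call) were chosen after their values were seen.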

Additional observations from a re-analysis of the deposited data

Results flagged for a closer look

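In the 10 March group of 4 Oregon Siskiyou libraries, the library labelled tree 44 lay far from the other 3 in the share of features with 2 or more counts that its tree lacked on the other dates and 3 or more other trees had (55.2%). In the 7 April group of 4 Washington Coast libraries, the library of tree 12 (family WACS-7205) lay apart at 13.0%, a value within the range of the other libraries. Of the 8 groups of 4 libraries examined, 2 had such a library, and chance alone gives about 1 in 20. The 2 Washington Coast libraries of 17 June, at 49.1% and 40.6%, are in 1 group and so neither is far from its nearest neighbour. Causes were not tested.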

How the results depend on the processing

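The number of features that met the rule moved with its limits: 42 with an absent limit of 0 counts, 195 with a present limit of 10 and 24 with one of 50, 252 with 2 or more trees on each side and 21 with 4 or more, and 217 when 3 of 4 dates were enough. It was 112 with an absent limit of 3, 54 with TMM-scaled counts, 99 without the 3 libraries, and 55 to 65 when a tree was left out. The share of sib pairs in the same state was 54.1% to 65.0% under these settings and 56.2% to 69.6% without 1 tree, and the share for tree 38 and its sib was at least 58.3% and 61.9% to 69.05%; it has no value without tree 08, the sib itself. For the 76 features, seasonal calls without the block were 0 in all 3 comparisons. With the replicate block they were 16 for 17 June against 10 March, 16 over the 4 dates and 7 for 6 May against 7 April, and 10, 11 and 7 with a flowcell term as well. Without the 3 libraries and with the replicate block they were 13, 16 and 7. At an adjusted p of 0.05 without the block they were 3, 3 and 0, and DESeq2 gave 1, 1 and 0. Leaving out a tree gave 0 to 2, 0 to 1 and 0 to 0 calls without the block, and 11 to 16, 11 to 19 and 6 to 8 with it. Over all features, no setting moved a count by more than 1.5 times. The cause of these shifts was not tested, except that a stricter limit admits fewer features by construction. Depth limits the absent calls, since 20 counts is a small number and a weak transcript can be missed at 1 count.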

Other observations

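Outside the 76 features, 98 features present in 3 or more trees were absent in exactly 1 tree and 42 in exactly 2, out of 20177. A further 23 features met the rule only when the 3 libraries were set aside.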
